A study of Bos taurus with 2 samples.

Results

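The 6 genes described here carry the hedgehog signal from ligand to transcription factor: the secreted ligand SHH, the ligand-binding decoy HHIP, the co-receptors CDON and BOC, the membrane transducer SMO and the transcription factor GLI3. They were chosen by name out of 17846 genes, and all 6 had counts. They were measured by droplet single-cell RNA sequencing in day 25 bovine embryos with incorporated bovine embryonic stem cells (bESCs), which makes the embryos mixtures of host and bESC-derived cells. Both samples carried the same label, so the study holds 1 group with 2 replicates, and every comparison is between cells of the same suspensions. The labels do not say whether the replicates came from separate embryos, which cells were donor-derived, or which cells the sort kept. All p-values measure only how 2 replicates differ, which may be technical, with the spread pooled over genes.

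Hedgehog ligand binds the receptor PTCH1, which otherwise holds SMO inactive. CDON, BOC, GAS1 and LRP2 help the ligand reach PTCH1, whereas HHIP binds the ligand and withholds it. Without ligand GLI3 is processed into a repressor, and with ligand GLI1 and GLI2 act as activators. PTCH1, HHIP and GLI1 are themselves known targets of the pathway in mouse. In the vertebrate neural tube SHH is made by the notochord and by the floor plate, the ventral midline that also expresses FOXA2. The ligand sets ventral cell identities, while GLI3 is known for its role in the dorsal and intermediate tube.

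Replicate 1 held 1973 cells and 11182089 unique molecular identifiers (UMIs, short tags with which every captured RNA is counted a single time), and replicate 2 held 2464 cells and 15427708 UMIs. Only 6 barcodes occurred in both libraries. The 4359 cells with 500 or more detected genes were sorted into exclusive gates on a few genes each. The SOX2 gate, with a SOX2 UMI but without the neuron or collagen VI genes, held 790 cells in replicate 1 and 1094 in replicate 2. The neuron gate, with at least 2 of DCX, STMN2 and ELAVL4, held 473 and 536 cells, and the collagen VI gate held 40 and 77. A further 601 and 659 cells met no gate and are called ungated. The remaining 24 placental, 32 erythroid and 33 mixed cells entered no gate comparison.

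The gates were checked with genes that they did not use. Levels are scaled CPM, that is UMIs of a gene relative to the UMI total of the summed cells, in the usual CPM unit, after adjustment for composition. The neural progenitor gene PAX6 stood at 124 and 94.4 in SOX2 cells, 133 and 146 in neuron-gate cells, 19.0 and 7.46 in collagen VI cells and 98.3 and 83.7 in ungated cells. The neuronal tubulin TUBB3 stood at 54.4 and 59.2 in SOX2 cells, against 352 and 532 in neuron-gate cells. The fibrillar collagen COL1A1 stood at 18.8 and 28.6 in SOX2 cells, against 13965 and 15103 in collagen VI cells. The gates are not clean lineages, since 45.0% and 47.8% of neuron-gate cells also had a SOX2 UMI and PAX6 was at least as high there as in SOX2 cells. Median UMIs per cell were 5610 and 6673 in SOX2 cells, 6919 and 7284 in neuron-gate cells, 9174 and 11767 in collagen VI cells, and 2984 and 2833 in ungated cells. The median share of UMIs from ribosomal protein genes was 4.13% and 7.19% in SOX2 cells, 6.05% and 10.3% in neuron-gate cells, 21% and 26.4% in collagen VI cells, and 3.36% and 3.08% in ungated cells. The part of depth and of the ribosomal share in the gate differences below was examined only by repeating the fits within strata.

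The ligand SHH was concentrated in SOX2 cells, and the decoy HHIP and the transducer SMO were also higher there than in neuron-gate or collagen VI cells. GLI3 ran the other way, with its highest level in collagen VI cells, and so did BOC after scaling for composition. Per library total, BOC was at 64.6 and 46.5 CPM in collagen VI cells, 54.8 and 53.5 in SOX2 cells and 52.3 and 58.1 in ungated cells, which overlap. CDON was found in every gate. Over all 4359 cells SHH had 1256 UMIs in 523 cells (12.0%), HHIP had 2337 UMIs in 1099 cells (25.2%) and CDON had 2811 UMIs in 1486 cells (34.1%). BOC had 1260 UMIs in 879 cells (20.2%), SMO had 1853 UMIs in 1356 cells (31.1%) and GLI3 had 7798 UMIs in 2440 cells (56.0%).

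SHH, the ligand, reached 63.0 and 71.0 scaled CPM in SOX2 cells, replicate 1 before replicate 2. Its level was 16.4 and 28.4 in neuron-gate cells, 0 and 5.59 in collagen VI cells, and 20.9 and 22.6 in ungated cells. SOX2 cells were above every other gate in both replicates, collagen VI cells were the lowest, and the neuron and ungated values overlapped. HHIP, the decoy, stood at 103 and 87.1 in SOX2 cells, 72.0 and 46.8 in neuron-gate cells, 30.4 and 9.32 in collagen VI cells, and 89.6 and 104 in ungated cells. SOX2 and ungated cells overlapped at the top. The 8 HHIP UMIs of collagen VI cells in replicate 1 came from 1 cell, and the 5 in replicate 2 came from 3 cells.

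The co-receptor CDON stood at 105 and 96.6 in SOX2 cells, 86.4 and 76.0 in neuron-gate cells, 118 and 57.8 in collagen VI cells, and 139 and 121 in ungated cells. Ungated cells were the highest in both replicates, and the 2 collagen VI values lay so far apart that they spanned the SOX2 and neuron values. Its paralog BOC stood at 46.9 and 47.9 in SOX2 cells, 39.1 and 32.2 in neuron-gate cells, 91.1 and 72.7 in collagen VI cells, and 41.9 and 47.5 in ungated cells. Collagen VI cells were above all other gates, and SOX2 and ungated cells overlapped.

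The transducer SMO stood at 76.1 and 74.2 in SOX2 cells, 47.2 and 50.2 in neuron-gate cells, 41.7 and 28.0 in collagen VI cells, and 63.6 and 76.2 in ungated cells. SOX2 and ungated cells overlapped above the other gates. The transcription factor GLI3 stood at 294 and 245 in SOX2 cells, 197 and 169 in neuron-gate cells, 911 and 1023 in collagen VI cells, and 325 and 332 in ungated cells. For GLI3 the 4 gates did not overlap, with collagen VI cells first, then ungated, SOX2 and neuron-gate cells.

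**Figure D1:**
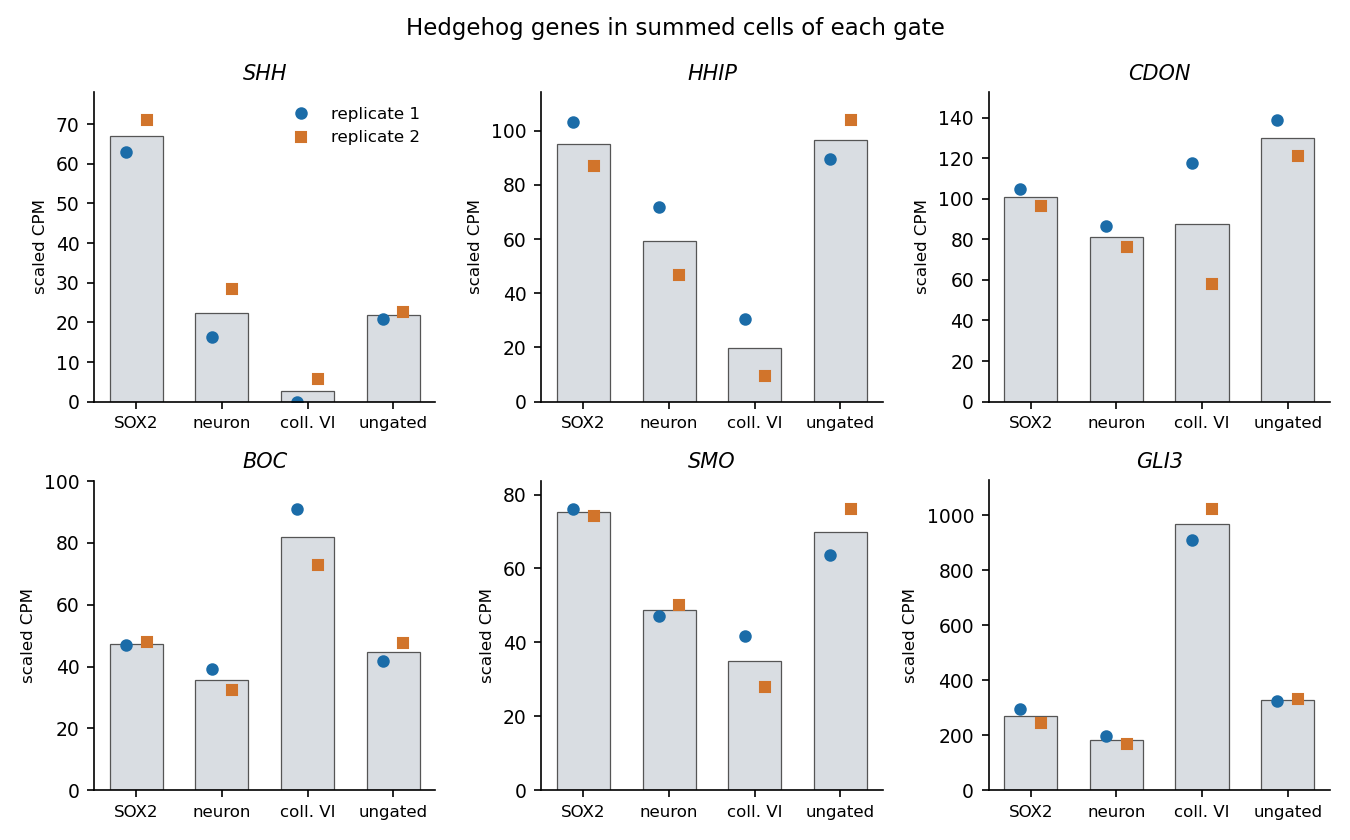
Scaled CPM of the 6 hedgehog genes in the summed cells of the SOX2, neuron, collagen VI and ungated gates; bars are the mean of 2 replicates, and circles and squares are replicates 1 and 2. SHH was highest in SOX2 cells (63.0 and 71.0), and GLI3 was highest in collagen VI cells (911 and 1023).

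Shares of cells with a UMI depend on depth, so they are given as measured and at equal depth. SHH was detected in 16.3% and 21.4% of SOX2 cells (exact binomial 95% intervals 13.8 to 19.1% and 19.0 to 23.9%, for counting error only), against 4.86% and 8.02% of neuron-gate cells. After each cell was thinned to 2000 UMIs, which left out shallower cells, the shares were 8.41% and 10.3% of 725 and 1021 SOX2 cells, against 2.43% and 4.09% of 453 and 513 neuron-gate cells. BOC, whose scaled level was highest in collagen VI cells, was found after thinning in 11.7% and 11.8% of SOX2 cells, against 10.8% and 12.2% of collagen VI cells. GLI3 was detected in 66.6% and 65.1% of SOX2 cells, against 92.5% and 97.4% of collagen VI cells, and after thinning in 42.3% and 38.2%, against 54.0% and 64.9%. HHIP was detected in 33.7% and 30.5% of SOX2 cells, against 2.50% and 3.90% of collagen VI cells, and after thinning in 17.9% and 17.5%, against 2.70% and 1.35%. Free RNA can give a low share in any gate, but it was not measured. The erythroid cells (medians of 27366 and 21831 UMIs) and placental cells (12550 and 10740 UMIs) served as a rough gauge. Free RNA and expression of their own cannot be told apart in them. Among 9 and 23 erythroid and 13 and 11 placental cells, SHH had a UMI in 0 and 1 and in 1 and 0 cells, and HHIP had none. SMO had a UMI in 1 and 4 erythroid cells (11.1% and 17.4%) and in no placental cell, and GLI3 in 2 and 2 erythroid cells (22.2% and 8.70%). The SMO share of collagen VI cells in replicate 2 (14.3%) was no higher than that of the few, deeper erythroid cells (exact interval 4.95 to 38.8%). SHH had a UMI in 3 of 77 collagen VI cells in replicate 2 and in 0 of 40 in replicate 1. The 0 allows a share of cells with a UMI of up to 7.50%, or 3 cells. Neither share was higher than that of erythroid cells, with 1 of 23 and 0 of 9 cells.

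Between SOX2 and neuron-gate cells all 6 genes were higher in SOX2 cells in edgeR's quasi-likelihood test with Benjamini-Hochberg adjustment. Of 12975 genes tested, 22.4% were called higher and 22.5% lower in SOX2 cells by the same rule, 2909 and 2922 genes, or 3959 and 2183 with library totals alone. The log2 fold change was 1.57 for SHH (SE 0.15, adjusted p = 2.05e-11), 0.69 for HHIP (SE 0.15, adjusted p = 0.000479) and 0.62 for SMO (SE 0.12, adjusted p = 6.92e-05). GLI3 followed with 0.56 (SE 0.10, adjusted p = 9.3e-06), BOC with 0.42 (SE 0.14, adjusted p = 0.0125) and CDON with 0.31 (SE 0.11, adjusted p = 0.0192). The CDON call was lost in 5 alternatives, among them neuron-gate cells without SOX2 (0.19) and cells with a ribosomal share under 10% (0.02). Among cells with a ribosomal share of 10% or more, HHIP was at 0.14 and BOC at -0.23, neither of them called.

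Other genes of the pathway were called in both directions. Of the other 32 genes of a hedgehog list, 29 were tested, and 7 were higher, 10 lower and 12 not called, with 22.4% and 22.5% of all genes called higher and lower. Their median log2 fold change was -0.03, against 0.02 over all genes tested. PTCH1, the receptor and pathway target, stood at 153 and 142 scaled CPM in SOX2 cells and 143 and 136 in neuron-gate cells (log2 fold change 0.07, SE 0.09, adjusted p = 0.542). LRP2, an endocytic co-receptor, was higher in SOX2 cells (19.3 and 16.3, against 8.64 and 8.45, log2 fold change 1.04), as were SCUBE3, which helps ligand release (0.84), and the GLI inhibitor SUFU (0.58). Lower in SOX2 cells were HHAT, the acyltransferase of the ligand (30.4 and 30.2, against 56.7 and 57.1, log2 fold change -0.91), and the ligand-release protein DISP1 (-0.31). The kinases GSK3B (-0.59) and PRKACB (-0.24), the ciliary motor subunit KIF3A (-0.58) and the glypican GPC3 (-0.40) were lower too.

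Against collagen VI cells the members split in direction. SHH was 18.1 times as high in SOX2 cells, with a counting interval of 6.17 to 87.8, since only 3 UMIs were seen in collagen VI cells. The SHH call was lost after thinning (log2 fold change 1.75, adjusted p = 0.0582). HHIP (log2 fold change 2.50, SE 0.39, adjusted p = 1.15e-05) and SMO (1.21, SE 0.27, adjusted p = 0.000236) were also higher in SOX2 cells. GLI3 (-1.87, SE 0.11, adjusted p = 9.54e-19) and BOC (-0.74, SE 0.22, adjusted p = 0.00512) were lower, and CDON was not called (0.34, SE 0.20, adjusted p = 0.17). Of all genes tested, 26.2% were called higher and 24.7% lower. Collagen VI cells were scaled down strongly for composition, and with library totals alone the median of all genes stood at 0.96 in place of 0.19. On that scale BOC was at 0.03, SMO at 1.99, GLI3 at -1.10 and CDON at 1.11, so that BOC changed sign and lost its call and CDON gained one, and 7015 genes were called higher and 1788 lower in place of 3400 and 3210.

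Under a ribosomal share of 10%, SHH (adjusted p = 0.101), HHIP (1.54, adjusted p = 0.156), SMO (1.53, adjusted p = 0.0541) and BOC (-0.23, adjusted p = 0.77) were not called, and BOC was not called after thinning (-0.46, adjusted p = 0.454). Of 9 receptors and co-receptors, 3 were higher, 4 lower and 2 not called between SOX2 and collagen VI cells, beside 26.2% and 24.7% of all genes. PTCH1 was higher in SOX2 cells (153 and 142 scaled CPM, against 34.1 and 37.3, log2 fold change 2.00, adjusted p = 3.83e-10). GAS1, a membrane-anchored co-receptor, was lower (10.1 and 12.3, against 72.1 and 149, log2 fold change -3.36), and so were LRP2 (19.3 and 16.3, against 83.5 and 85.7, log2 fold change -2.25) and GPC3 (log2 fold change -5.83), a glypican that binds the ligand. Among effectors GLI2 was lower (12.8 and 15.2, against 41.7 and 46.6, log2 fold change -1.67). SCUBE2, a ligand-release factor, was lower as well (6.37 and 5.26, against 53.1 and 42.9, log2 fold change -3.03). DISP1 (0.90), HHAT (0.90), SUFU (0.88), KIF3A (1.17), PRKACB (0.84) and GSK3B (0.34) were higher in SOX2 cells. GLI1, the target-gene activator, had only 72 UMIs in 69 of all cells, too few to describe by gate.

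Neuron-gate cells set against the same collagen VI cells gave 2.62 for SHH (SE 0.64, adjusted p = 0.000721), 1.81 for HHIP (SE 0.43, adjusted p = 0.00119), -2.43 for GLI3 (SE 0.11, adjusted p = 6.73e-22) and -1.16 for BOC (SE 0.24, adjusted p = 7.1e-05). SMO (0.59, adjusted p = 0.0914) and CDON (0.02, adjusted p = 0.941) were not called. Background shares were 25.9% higher and 24.0% lower, with 3356 and 3108 genes, or 6341 and 1932 with library totals alone. The SHH value rests on few UMIs and was 0.34 and not called after thinning. Relative to ungated cells, SHH was higher in SOX2 cells (log2 fold change 1.62, SE 0.16, adjusted p = 3.48e-10), while CDON (-0.36, SE 0.11, adjusted p = 0.00923) and GLI3 (-0.29, SE 0.10, adjusted p = 0.0178) were lower. HHIP (-0.03), BOC (0.09) and SMO (0.10) were not called. Under a ribosomal share of 10%, SHH was at 0.68 and lost its call (adjusted p = 0.178). The background was 15.2% higher and 12.5% lower, with 1977 and 1626 genes, or 1563 and 2756 with library totals alone. Among cells with a ribosomal share of 10% or more CDON was at 0.60 and GLI3 at 0.12, both opposite in sign to the values above.

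Within the SOX2 gate the ligand was low in dividing cells. SHH stood at 27.4 and 35.4 scaled CPM in cycling cells, with 2 or more UMIs of MKI67 and TOP2A, and at 104 and 120 in cells with none (log2 fold change -1.82, SE 0.14, adjusted p = 3.16e-35). Of 11769 genes tested, 10.4% were called higher and 10.5% lower in cycling cells, 1225 and 1232 genes, or 1658 and 909 with library totals alone. SMO was higher in cycling cells (111 and 93.8, against 64.7 and 81.5, log2 fold change 0.45, SE 0.12, adjusted p = 0.00195) and so was GLI3 (377 and 316, against 320 and 254, log2 fold change 0.28, SE 0.08, adjusted p = 0.00726). Both calls were lost with DESeq2 (SMO 0.48, adjusted p = 0.488, and GLI3 0.27, adjusted p = 0.401) and without the replicate block (SMO 0.46, adjusted p = 0.0721, and GLI3 0.27, adjusted p = 0.221). HHIP (0.24, adjusted p = 0.1), CDON (0.11, adjusted p = 0.544) and BOC (-0.22, adjusted p = 0.311) were not called. SUFU (0.43) and SCUBE3 (0.46) were the other hedgehog genes higher in cycling cells. The floor plate genes FOXA2 (-0.59), NTN1 (-0.64) and SPON1 (-1.58) were lower in cycling cells together with SHH, and the dorsal gene PAX3 was higher (160 and 190, against 135 and 92.6, log2 fold change 0.67).

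Of the HHIP, GLI3, CDON and BOC transcripts, most SOX2 cells held 1 or 2. In replicate 1, 141 of 790 SOX2 cells (17.9%) had none of the 4 genes, 220 had 1, 265 had 2, 122 had 3 and 42 (5.32%) had all 4. In replicate 2, 182 of 1094 (16.6%) had none, 345 had 1, 347 had 2, 184 had 3 and 36 (3.29%) had all 4. All 4 were found in 22 (4.65%) and 10 (1.87%) neuron-gate cells and in 10 (1.66%) and 16 (2.43%) ungated cells, and in 0 of 40 and 0 of 77 collagen VI cells, which allows shares of cells with a UMI of all 4 of up to 7.50% and 3.90%. A cell with no UMI of a gene may still express it, while free RNA and doublets can add UMIs. These counts therefore bound co-expression neither from below nor from above.

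Pairs were described by the odds ratio of detection over quintiles of UMIs per cell, with 1 meaning that the 2 genes were found together as often as their single shares give at equal depth. GLI3 was found together with both co-receptors. CDON and GLI3 shared 250 SOX2 cells (31.6%) in replicate 1 and 318 (29.1%) in replicate 2, with odds ratios of 2.35 and 1.96. BOC and GLI3 shared 140 (17.7%) and 202 (18.5%) cells, with odds ratios of 1.91 and 1.87. The co-receptors themselves were not paired in this way: CDON and BOC shared 74 (9.37%) and 111 (10.2%) cells, with odds ratios of 0.966 and 1.12.

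HHIP was found with GLI3 in 209 (26.5%) and 236 (21.6%) SOX2 cells, with odds ratios of 2.06 and 1.44, and with BOC in 87 (11%) and 114 (10.4%), with odds ratios of 2.00 and 1.94. With CDON it shared 123 (15.6%) and 134 (12.2%) cells, with odds ratios of 1.26 and 1.14. The pairs of HHIP, and those of GLI3 with the co-receptors, varied with the ribosomal share of the cells. CDON and GLI3 had odds ratios of 1.97 and 1.55 under 10%, against 3.51 and 2.27 at 10% or more. BOC and GLI3 were at 1.58 and 1.46, against 2.96 and 2.39. Under 10% the odds ratio of HHIP and GLI3 was 1.75 and 1.01, and that of HHIP and CDON 1.17 and 0.669; at 10% or more they were 2.65 and 2.24, and 1.35 and 2.44. After thinning to 2000 UMIs all 6 pairs were found in fewer cells, for example CDON and GLI3 in 11.3% and 10.4% and HHIP and GLI3 in 8.55% and 7.64%. The thinned odds ratios were 1.84 and 2.16 for CDON and GLI3 and 1.30 and 1.31 for HHIP and GLI3, and those of HHIP and BOC moved apart to 1.27 and 3.003.

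In neuron-gate cells the pairs of HHIP and of BOC with GLI3 had higher odds ratios than in SOX2 cells. HHIP and GLI3 shared 72 and 63 neuron-gate cells, with odds ratios of 5.06 and 3.40 (1.39 and 2.87 thinned), BOC and GLI3 reached 8.63 and 2.51 (5.05 and 1.71 thinned), and HHIP and BOC reached 3.56 and 2.88. CDON and GLI3 were at 2.31 and 1.61 in neuron-gate cells and 2.25 and 1.93 in ungated cells, against 2.35 and 1.96 in SOX2 cells. Thinned, they were at 1.99 and 1.60 in neuron-gate, 3.03 and 2.01 in ungated and 1.84 and 2.16 in SOX2 cells. The order of the gates then differed between the replicates. No test of the difference between gates was made. In collagen VI cells of replicate 2 GLI3 was in 75 of 77 cells, so its pairing with CDON and BOC could not be described.

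**Figure D2:**
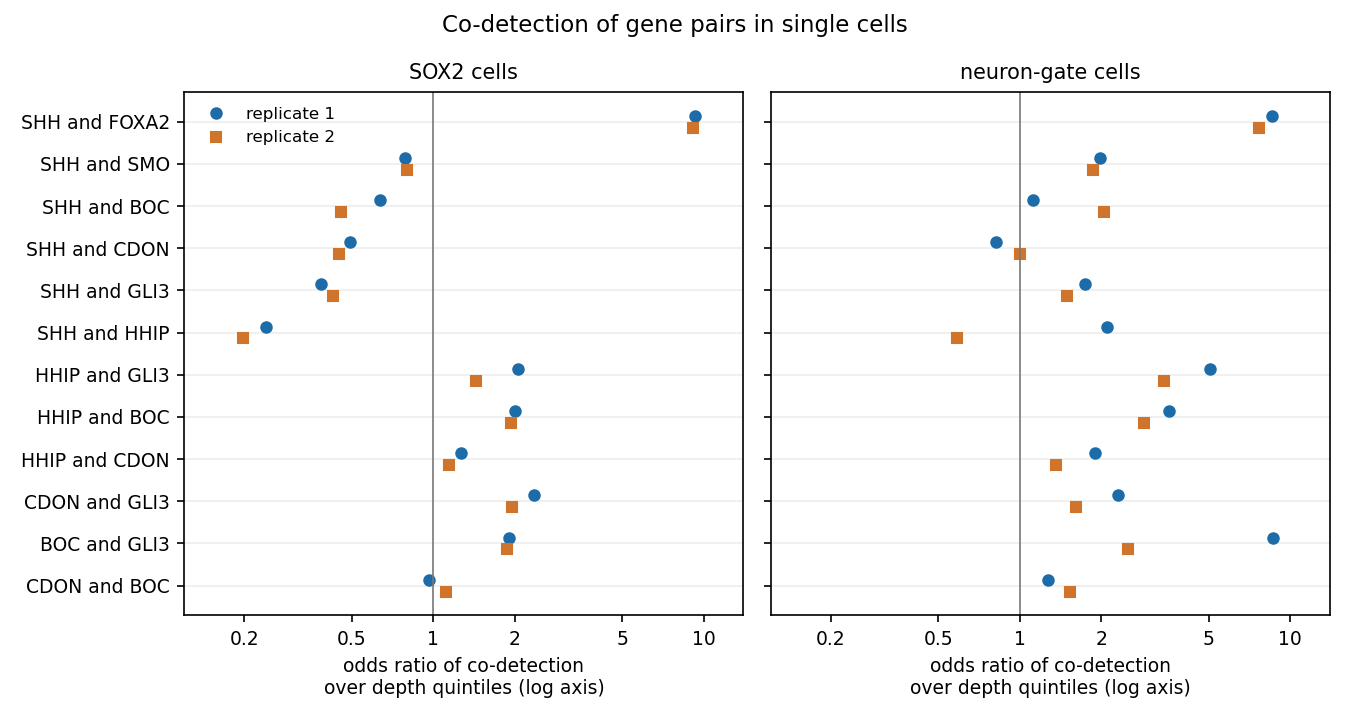
Odds ratio of co-detection over depth quintiles (log axis, the line at 1 is no association) for 12 gene pairs in SOX2 cells (left) and neuron-gate cells (right); circles and squares are replicates 1 and 2. In SOX2 cells the pairs of SHH with HHIP lay at 0.24 and 0.198, and those of CDON with GLI3 at 2.35 and 1.96.

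In SOX2 cells SHH was found with each of the other 5 genes less often than their single shares give at equal depth. SHH and HHIP shared 16 (2.02%) and 21 (1.92%) SOX2 cells, with odds ratios of 0.24 and 0.198, and HHIP was detected in 12.4% and 8.97% of SHH-detected cells, against 37.8% and 36.4% of SHH-undetected cells. The odds ratios of SHH were 0.383 and 0.423 with GLI3, 0.491 and 0.449 with CDON, 0.636 and 0.456 with BOC, and 0.786 and 0.801 with SMO. Within ribosomal shares under 10% the odds ratio of SHH and HHIP was 0.236 and 0.238, and at 10% or more it was 0.316 and 0.210. In neuron-gate cells SHH and HHIP shared only 6 and 5 cells, and the odds ratios, 2.10 and 0.583, lay on opposite sides of 1. There SHH was at 1.74 and 1.49 with GLI3, 1.97 and 1.86 with SMO, 1.12 and 2.04 with BOC and 0.816 and 1.001 with CDON, from 4 to 22 shared cells. After thinning the values were 2.21 and 0.374 with GLI3, 0.905 and 0.463 with SMO and 2.30 and 0 with HHIP. With BOC they were 0 and 0.829, and with CDON 0.55 and 0, all from 5 or fewer shared cells. With 23 and 43 SHH-detected neuron-gate cells, whether the low values of SOX2 cells hold there could not be told.

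SOX2 cells with HHIP held more of the receiving genes and less ligand than SOX2 cells without it. The split set 266 and 334 HHIP-detected cells against 524 and 760 HHIP-undetected cells, and HHIP itself is the rule and no result. BOC stood at 76.5 and 84.8 scaled CPM in HHIP-detected cells, against 41.8 and 44.7 in undetected cells (log2 fold change 0.90, SE 0.13, adjusted p = 3.97e-08). GLI3 stood at 436 and 367, against 287 and 257 (0.56, SE 0.07, adjusted p = 2.42e-09), and SMO at 104 and 105, against 79.7 and 81.1 (0.37, SE 0.11, adjusted p = 0.00576). CDON stood at 140 and 134, against 111 and 107 (0.33, SE 0.10, adjusted p = 0.00609). SHH was lower, at 20.1 and 18.0, against 104 and 114 (-2.53, SE 0.16, adjusted p = 5.96e-23). For each of these 5 genes the 2 groups of cells did not overlap over the replicates. The share of all tested genes without overlap was not counted. Of 11924 genes tested, 18.0% were called higher and 20.4% lower, 2152 and 2428 genes, or 4167 and 1650 with library totals alone.

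Of the 29 other hedgehog genes tested in the HHIP split, 11 were higher, 0 lower and 18 not called. The shares over all genes were 18.0% higher and 20.4% lower. The median log2 fold change of the 29 genes was 0.25, against 0.02 over all genes. The higher ones included the receptor PTCH1 (0.54, adjusted p = 4.43e-07), the co-receptor LRP2 (0.62), the activator GLI2 (0.95), SUFU (0.55), SCUBE2 (1.04) and SCUBE3 (0.68). GAS1 (0.11) and GPC3 (0.05) were not called. Ventral genes were lower in HHIP-detected cells: 5 of 6 tested passed, among them FOXA2 (180 and 168, against 329 and 364, log2 fold change -1.004), SPON1 (-1.61) and NTN1 (-1.23). Of 8 dorsal genes tested, 4 were higher and 0 lower, among them PAX3, a dorsal neural tube factor (233 and 224, against 94.4 and 94.7, log2 fold change 1.27), WNT3A, a roof plate ligand (0.95), and ZIC1 (0.39). OTX2, a forebrain and midbrain factor, was higher as well (20.6 and 32.2, against 12.1 and 11.9, log2 fold change 1.17).

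Over all genes the highest log2 fold changes with HHIP were those of the channel TRPM3 (3.01), the lipid receptor S1PR3 (1.61), QRFPR (1.56), TEX11 (1.51), CPNE4 (1.44), the cadherin CDH20 (1.38), MFAP3L (1.34) and the homeobox gene GBX1 (1.32). Among the lowest were those of TTC6 (-4.10, 2 and 5 UMIs, against 77 and 173), SLITRK6 (-4.00, 0 and 7, against 74 and 159) and GAP43 (-3.68). HHIP-detected cells had median ribosomal shares of 3.43% and 3.86%, against 4.85% and 11.4% in HHIP-undetected cells. Within shares under 10%, 106 genes were called higher and 191 lower (0.987% and 1.78%). There SHH (-2.29, adjusted p = 7.3e-09), GLI3 (0.33, adjusted p = 0.0182) and PTCH1 (0.38, adjusted p = 0.0299) kept their calls, while BOC was at 0.52 (adjusted p = 0.0515), SMO at 0.41 (adjusted p = 0.127) and CDON at 0.01 (adjusted p = 0.99). After thinning to 2000 UMIs GLI3 was at 0.37 (adjusted p = 0.0605), SMO at 0.51 (adjusted p = 0.106) and CDON at 0.27 (adjusted p = 0.413), none of them called, and DESeq2 did not call CDON or SMO. CDON was also not called without the replicate block (0.33, adjusted p = 0.0545).

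GLI3 detection split the SOX2 cells along the co-receptors. Here 526 and 712 GLI3-detected cells were set against 264 and 382 GLI3-undetected cells. CDON stood at 140 and 131 scaled CPM in GLI3-detected cells, against 63.6 and 67.7 in undetected cells (log2 fold change 1.03, SE 0.12, adjusted p = 1.89e-16). BOC stood at 58.9 and 64.6, against 38.6 and 34.7 (0.78, SE 0.15, adjusted p = 2.19e-05). SHH was lower, at 55.0 and 60.6, against 114 and 127 (-1.06, SE 0.12, adjusted p = 1.72e-16). HHIP (0.17, SE 0.11, adjusted p = 0.351) and SMO (0.18, SE 0.12, adjusted p = 0.381) were not called. Of 12084 genes tested, 6.84% were called higher and 5.64% lower, 826 and 682 genes, or 994 and 578 with library totals alone.

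Among the other hedgehog genes in the GLI3 split, 6 of 29 were higher and 0 lower, with a median of 0.14, against -0.02 over all genes. The shares over all genes were 6.84% higher and 5.64% lower. GAS1 stood at 13.7 and 16.7, against 5.71 and 8.68 (log2 fold change 1.05), and GLI2 at 16.8 and 20.7, against 8.57 and 10.4 (0.98). DISP1 (0.45), SCUBE3 (0.45), PTCH1 (0.34) and PRKACB (0.23) were also higher. Dorsal PAX3 (160 and 159, against 96.4 and 68.2, log2 fold change 1.00) and WNT3A (1.08), and intermediate IRX3 (0.72) and IRX5 (0.61), were higher. The ventral genes NKX2-2 (-1.49), NTN1 (-0.59) and SPON1 (-0.58) were lower, and FOXA2 was not called (-0.13, adjusted p = 0.293). Over all genes the highest values were those of GABRG3 (1.76), GLRA1 (1.45), AFF3 (1.43), HS6ST2 (1.31), HOXA3 (1.26), HS6ST3 (1.26), ELMO1 (1.19) and PTN (1.18), and the lowest those of CDH18 (-2.49), LRRC4C (-2.31), CA10 (-1.97) and EDIL3 (-1.93). The ribosomal shares were closer here, with medians of 3.97% and 7.11% in GLI3-detected cells, against 4.49% and 7.92% in GLI3-undetected cells. Under 10%, where 2.36% of genes were called higher and 1.72% lower, CDON (0.94, adjusted p = 1.53e-07) and SHH (-0.95, adjusted p = 0.0348) kept their calls and BOC was at 0.45 (adjusted p = 0.152). BOC was not called after thinning either (0.49, adjusted p = 0.109).

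**Figure D3:**
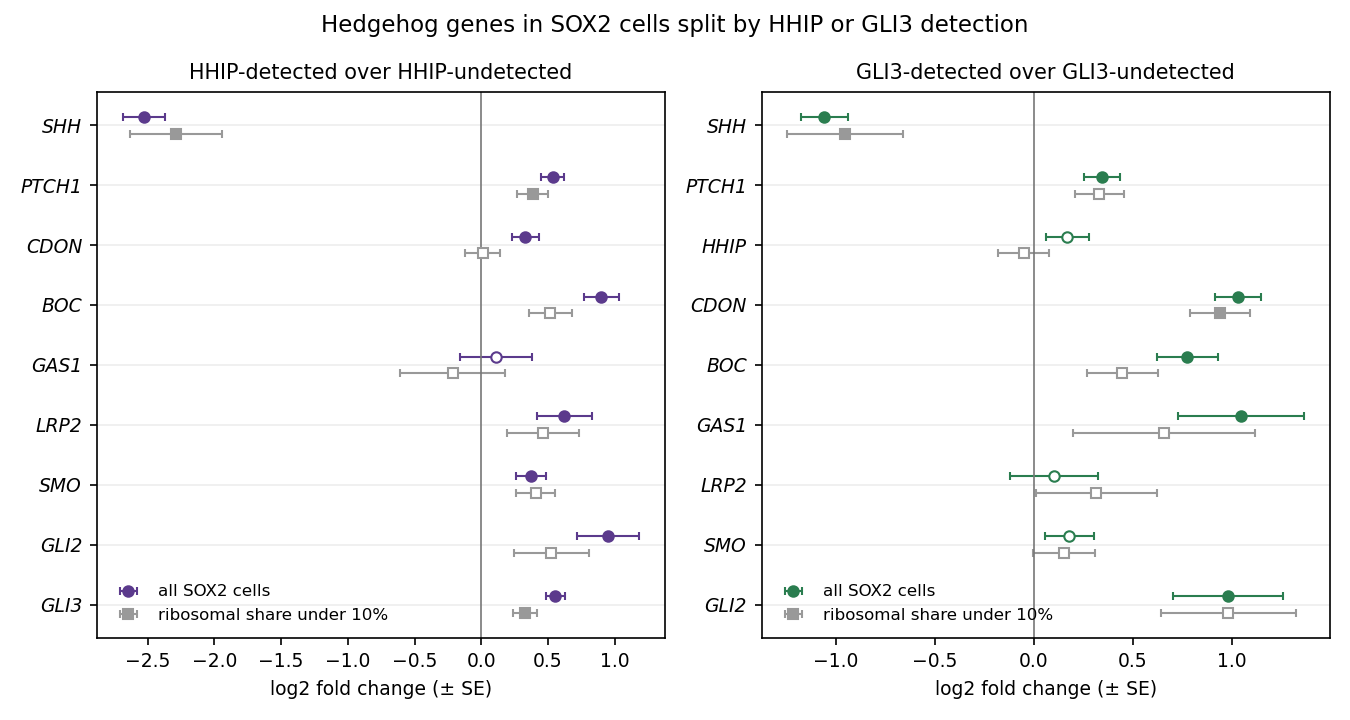
Log2 fold change (± SE) of hedgehog genes in SOX2 cells with HHIP over those without (left) and with GLI3 over those without (right); circles are all SOX2 cells, grey squares are cells with a ribosomal share under 10%, and filled symbols passed an adjusted p of 0.05. SHH lay at -2.53 in the HHIP split and -1.06 in the GLI3 split, and CDON lay at 0.33 and 1.03.

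The SOX2 gate was the main source of SHH. It held 75.4% and 75.8% of all SHH UMIs in 40.7% and 45.2% of the cells. Neuron-gate cells held 12.1% and 14.2% of SHH UMIs in 24.4% and 22.2% of cells, and ungated cells held 12.3% and 8.42% in 31.0% and 27.2% of cells. Collagen VI cells held 0 and 0.383% of SHH UMIs. SHH-detected cells numbered 129 and 234 in the SOX2 gate, 23 and 43 in the neuron gate, 36 and 46 among ungated cells, and 0 and 3 in the collagen VI gate. Single cells held up to 12 SHH UMIs, and of the 110 cells with 4 or more, 34 and 55 were SOX2 cells, 6 and 11 neuron-gate cells, and 2 and 2 ungated cells.

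**Figure D4:**
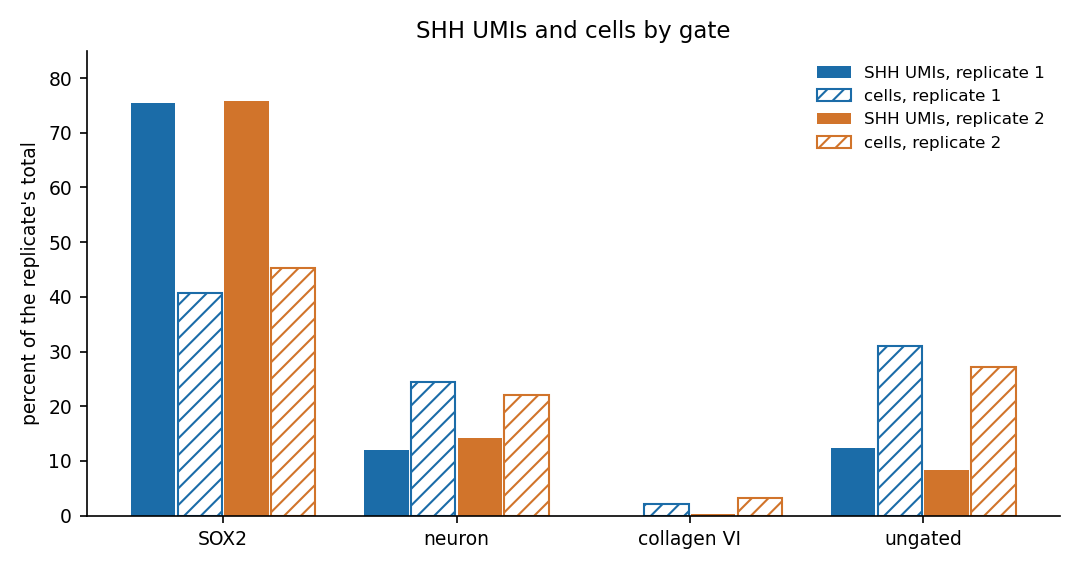
Percent of each replicate's SHH UMIs (filled bars) and of its cells (hatched bars) in the SOX2, neuron, collagen VI and ungated gates, replicate 1 in blue and replicate 2 in orange. SOX2 cells held 75.4% and 75.8% of SHH UMIs in 40.7% and 45.2% of the cells.

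SHH-detected SOX2 cells carried floor plate genes more often than the other SOX2 cells. FOXA2, the floor plate factor, was detected in 88.4% and 88.5% of SHH-detected SOX2 cells, against 35.9% and 39.6% of SHH-undetected SOX2 cells. Thinned to 2000 UMIs, with SHH detection also read from the thinned counts, the shares were 52.5% and 63.8%, against 26.7% and 27.8%. NTN1, the midline guidance cue netrin, was detected in 46.5% and 50%, against 17.6% and 17.3%, and SPON1, the floor plate matrix protein spondin, in 25.6% and 35.9%, against 9.98% and 12.8%. FERD3L was detected in 23.3% and 25.2%, against 2.12% and 4.88%. After the same thinning NTN1 was in 27.9% and 25.7%, against 9.94% and 10.0%. SPON1 was then in 14.75% and 17.1%, against 6.63% and 6.88%. FERD3L was then in only 1.64% and 3.81% of 61 and 105 cells, against 1.51% and 2.29%, too few to describe at equal depth. In the summed SOX2 cells FERD3L stood at 48.5 and 46.7 scaled CPM with SHH, against 3.93 and 8.46 without. Dorsal PAX3 was detected in 10.1% and 5.98%, against 39.6% and 39.3%. The notochord genes TBXT and NOTO and the epithelial genes EPCAM and CDH1, which mark gut endoderm, were at 0 in all SHH-detected SOX2 cells. They were also at or near 0 in SHH-undetected SOX2 cells, with NOTO at 0.151% and 0%, EPCAM at 0.454% and 1.16% and CDH1 at 0.908% and 1.05%, and TBXT had no UMI in any gate. FOXA2 and FOXA1, which gut endoderm also expresses, went the other way, and both were higher with SHH in the split of all cells.

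SHH and FOXA2 had odds ratios of co-detection of 9.30 and 9.11 in SOX2 cells and 8.53 and 7.65 in neuron-gate cells. In SOX2 cells they were 3.04 and 4.57 after thinning and 4.22 and 3.95 under a ribosomal share of 10%. In ungated cells they were 4.64 and 2.77, and 2.10 and 0.716 after thinning. FOXA2 ran the other way with HHIP (0.477 and 0.327) and BOC (0.438 and 0.360) in SOX2 cells, less so with GLI3 (0.745 and 0.725), and was near 1 with CDON (0.867 and 0.968). Of the neuron-gate cells with SHH, 60.9% and 79.1% had a SOX2 UMI, against 44.2% and 45.0% of those without SHH. After thinning the shares were 27.3% of 11 and 38.1% of 21 cells, against 26.0% and 25.0%. FOXA2 was detected in 73.9% and 69.8% of the neuron-gate cells with SHH, against 25.1% and 20.3% of those without.

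The split of all cells by SHH set 189 and 334 SHH-detected cells against 1750 and 2086 SHH-undetected cells. HHIP, CDON, GLI3 and BOC were lower in SHH-detected cells, and SMO was not called. HHIP stood at 31.1 and 23.6 scaled CPM, against 96.1 and 88.0 (log2 fold change -1.78, SE 0.16, adjusted p = 2.85e-25), and CDON at 56.4 and 63.3, against 112 and 100 (-0.80, SE 0.14, adjusted p = 4.7e-08). GLI3 stood at 184 and 158, against 296 and 291 (-0.79, SE 0.12, adjusted p = 2.6e-10), and BOC at 31.1 and 26.8, against 45.3 and 48.7 (-0.72, SE 0.17, adjusted p = 0.000177). SMO stood at 62.9 and 70.5, against 63.4 and 66.7, and was not called (0.04, SE 0.14, adjusted p = 0.839). Of 13380 genes tested, 22.5% were called higher and 20.1% lower, 3005 and 2694 genes, or 1766 and 5039 with library totals alone.

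Of the 30 other hedgehog genes tested in the SHH split, 0 were higher, 10 lower and 20 not called, with a median of -0.26, against -0.02 over all genes. The shares over all genes were 22.5% higher and 20.1% lower. GLI2 was nearly absent from SHH-detected cells, with 3 and 6 UMIs, against 203 and 259 (log2 fold change -3.03, adjusted p = 3.06e-14). GAS1 (-1.49), GPC3 (-1.20), LRP2 (-1.10), SCUBE2 (-2.08), SCUBE3 (-0.64), SUFU (-0.64) and HHAT (-0.45) were lower. PTCH1 was not called (136 and 127, against 152 and 142, log2 fold change -0.16, adjusted p = 0.296). Of 7 ventral genes tested, 5 were higher and 0 lower, among them FOXA2 (546 and 509, against 125 and 133, log2 fold change 2.03), NTN1 (1.93), SPON1 (1.89) and FOXA1 (2.32). Of 9 dorsal genes, 2 were higher and 4 lower, with PAX3 at 28.2 and 12.4, against 128 and 124 (-2.77), WNT3A at -1.94 and LMX1A at -2.27 among the lower ones. The higher ones were MSX1 (0.53, adjusted p = 0.00114) and OLIG3 (2.27, with 7 and 15 UMIs, against 13 and 15). OTX2 was lower (-2.31), and the hypothalamic factor NKX2-1 was higher with few UMIs (11 and 14, against 3 and 5).

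Over all genes the highest log2 fold changes with SHH were those of SLITRK6 (4.74), FERD3L (3.35), PCP4 (3.21), EPHX1 (2.94), CALML4 (2.93), the protease CORIN (2.77), CATHL5 (2.75) and NXT2 (2.63). Among the lowest was HAND2, with 0 and 1 UMIs in SHH-detected cells, against 461 and 495, which puts it 152 times as high in SHH-undetected cells with a counting interval of 27.2 to 6012. The others were C15H11orf34 (1 and 1 UMIs, against 580 and 573), TRPM3 (0 and 1, against 228 and 287) and PAG8 (2 and 0, against 612 and 443). SHH-undetected cells pool all gates. HAND2 was detected in 16.4% and 18.1% of those in the neuron gate, against 0.303% and 1.40% of those in the SOX2 gate. PAG genes define the placental gate. The HAND2 and PAG8 folds therefore cannot be told apart from the mix of gates on each side. SHH-detected cells differed in depth and ribosomal share, with medians of 8289 and 8745 UMIs, against 4773 and 5220, and of 18.3% and 21.2%, against 3.77% and 4.55%. Within ribosomal shares under 10%, 71 genes were called higher and 132 lower (0.571% and 1.06%). Of the 8 genes named above as highest with SHH, only CORIN (2.30) was also among the 8 highest in this stratum. HHIP (-1.28, adjusted p = 0.0178), FOXA2 (1.44), NTN1 (1.45), SPON1 (1.96) and PAX3 (-2.98) kept their calls there. CDON (-0.80, adjusted p = 0.0967), GLI3 (-0.67, adjusted p = 0.0537) and BOC (-0.41, adjusted p = 0.607) did not. BOC was also not called after thinning (-0.25, adjusted p = 0.746) or with DESeq2 (-0.71, adjusted p = 0.127).

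The same split inside the SOX2 gate alone, 129 and 234 SHH-detected against 661 and 860 SHH-undetected cells, gave the same directions for HHIP, CDON, BOC and GLI3. HHIP stood at 25.2 and 20.6 scaled CPM, against 129 and 117 (log2 fold change -2.44, SE 0.19, adjusted p = 1.58e-35). BOC stood at 28.3 and 20.6, against 54.8 and 61.6 (-1.31, SE 0.21, adjusted p = 4.68e-09). CDON stood at 56.5 and 63.9, against 124 and 117 (-0.98, SE 0.15, adjusted p = 3.42e-09), and GLI3 at 172 and 160, against 344 and 298 (-0.95, SE 0.12, adjusted p = 5.84e-13). PTCH1 was also lower (-0.38, SE 0.13, adjusted p = 0.0105), and SMO was not called (-0.26, SE 0.15, adjusted p = 0.166). Of 12039 genes tested, 24.5% were called higher and 22.1% lower.

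Cells with FOXA2 can be compared among themselves, since 237 and 341 SHH-undetected SOX2 cells had a FOXA2 UMI, as did 114 and 207 SHH-detected ones. HHIP stood at 20.2 and 13.96 in the SHH-detected cells, against 78.6 and 59.4 in the undetected cells (log2 fold change -2.02, SE 0.24, adjusted p = 3.3e-14). CDON (-1.09, SE 0.18, adjusted p = 8.98e-08) and GLI3 (-1.03, SE 0.15, adjusted p = 1.14e-09) were lower too. BOC (-0.49, SE 0.27, adjusted p = 0.148) and SMO (-0.31, SE 0.18, adjusted p = 0.186) were not called, and PTCH1 was lower (-0.39, adjusted p = 0.0438). Of 10987 genes tested, 18.7% were called higher and 16.8% lower. FOXA2 itself was higher in the SHH-detected cells (640 and 608, against 421 and 412, log2 fold change 0.58), as were SPON1 (1.70) and NTN1 (1.31), and PAX3 was lower (-2.48). The median ribosomal share was 22.9% and 23.6% in the SHH-detected cells, against 4.66% and 9.17% in the undetected cells.

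**Figure D5:**
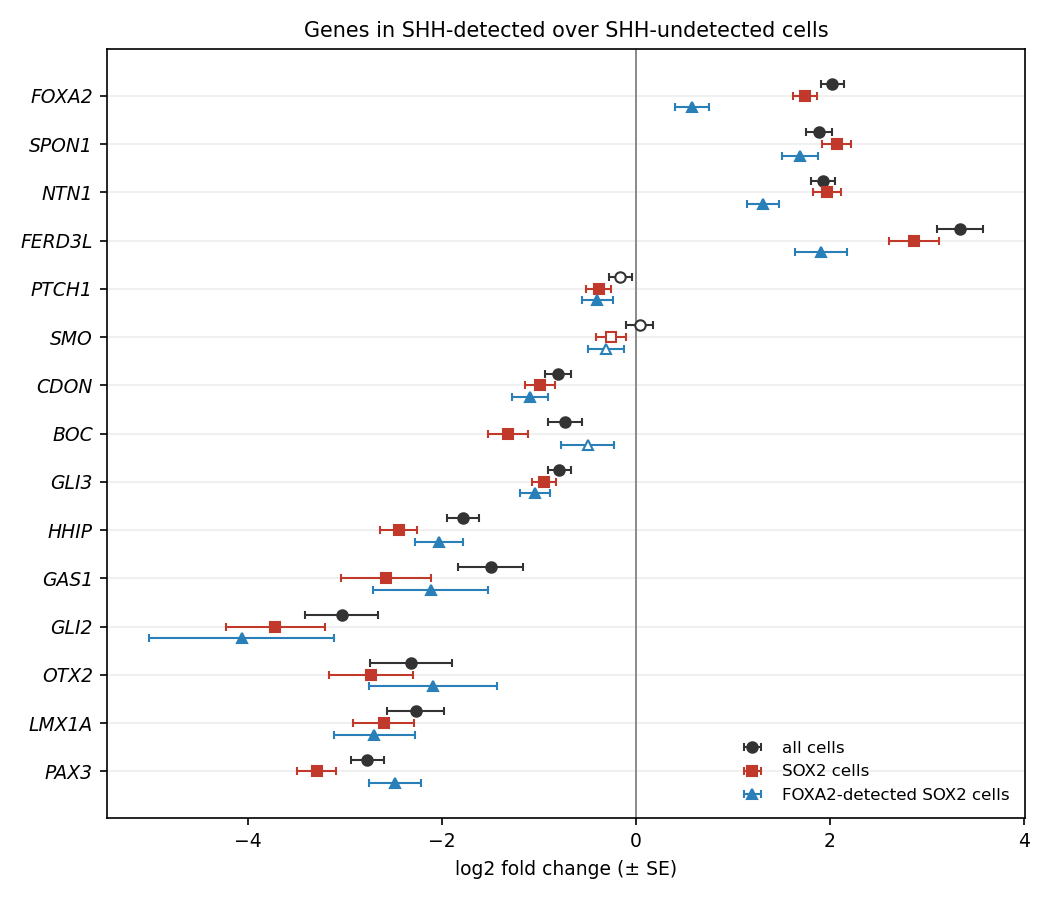
Log2 fold change (± SE) in SHH-detected over SHH-undetected cells for floor plate genes, hedgehog genes and dorsal or anterior genes; circles are all cells, squares SOX2 cells and triangles SOX2 cells with FOXA2, and filled symbols passed an adjusted p of 0.05. HHIP lay at -1.78, -2.44 and -2.02, and SMO, unfilled in all 3, lay at 0.04, -0.26 and -0.31.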

How the data were processed

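The authors deposited raw UMI counts per gene and cell, per the file headers and the values. Per the submitters' processing notes, Cell Ranger, the bosTau9 build, R 4.1.2 and Seurat 4.3.0 served for the upstream steps. The Cell Ranger release and the annotation are not stated in these sources. Per the labels' protocols, embryos were dissociated with papain, sorted and loaded on a 10x Genomics 3' v3.1 system. Deposited cells had 201 to 3999 detected genes, so very gene-rich cells are not analysed here. Symbols are the authors'; 17337 of 17846, with all 6 members, were found in RefSeq's ARS-UCD2.0 gene table, used for names only.

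Cells under 500 detected genes (78) were dropped. Gates used raw UMIs, in this order: erythroid (globin genes at 5% or more), placental (PAG, PRP, TKDP and CSH genes at 20 or more UMIs), neuron, collagen VI (COL6A1, COL6A2 and COL6A3 at 2 or more UMIs) and SOX2. Cells of collagen VI with neuron genes or SOX2 were left out as mixed. No doublet caller was run. Counts were summed per gate and replicate and tested with edgeR 4.0.16 in R 4.3.3 (TMM, filterByExpr, robust quasi-likelihood F-test, Benjamini-Hochberg at 0.05), with replicate as a block, because the gates of 1 replicate come from 1 suspension. The 4 gates shared 1 fit with 3 residual degrees of freedom, and each split had 1. On simulated SOX2 against neuron counts (12689 genes) the test recovered 62% of 100 genes changed by 1 and 100% of 100 changed by 2 on the log2 scale, and 6.36% of its calls were false. The changed genes were drawn from well-counted genes, and all genes were given the same spread. Only the fit of the 4 gates was simulated, so these rates do not cover low-count genes or the splits. DESeq2 1.42.0 was an alternative. Co-detection, shares and odds ratios are descriptions without a test, computed with Python 3.11.15. Cells were thinned at random to 2000 UMIs. Intervals cover counting error only.

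Named in the text were the 6 members, hedgehog-list genes at 20 or more CPM in a gate of both replicates, up to 5 called positional genes in each direction, and the 8 highest and 4 lowest called genes of each split at 20 or more CPM; a few others are named where a count or marker check turns on them. The members and all lists were chosen with earlier results of these data known. The fits without composition scaling, the strata by ribosomal share in the splits and odds ratios, and the SHH splits within SOX2 and FOXA2 cells were chosen after seeing the data. A few genes that this rule names are not reported here.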

Additional observations from a re-analysis of the deposited data

How the results depend on the processing

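Of the tested alternative values, 447 for single members kept their direction and side of the threshold, 54 lost the call, 5 gained one (HHIP in cycling cells, 0.31 without scaling, among them) and 4 changed sign, while 62 counts of called genes stayed within 1.5 times and 28 did not. Causes were not tested. With SOX2 over neuron cells (5831 genes called), DESeq2 called 3507, thinning 3887 and a ribosomal share of 10% or more 2507. HHIP was 0.14 and BOC -0.23 at 10% or more, BOC was 0.39 with DESeq2, and CDON lost its call at 0.29 with DESeq2, 0.26 with SOX2 at 2 or more UMIs, 0.016 under 10% and 0.19 in neuron cells without SOX2. With SOX2 over collagen VI cells (6610), thinning called 2789, leaving out the highest 5% of UMI counts 3669 and a share under 10% 2043. SHH was 1.75 thinned and 8.11 under 10%, HHIP 1.54, SMO 1.53 and BOC -0.23 under 10%, and BOC -0.46 thinned, none called. Without scaling CDON was called at 1.11 and BOC stood at 0.034. With neuron over collagen VI cells (6464), the same 3 settings called 2899, 4077 and 2450. SHH was 1.38 with all 3 neuron genes, 0.34 thinned, 1.65 without the highest 5%, 6.88 under 10% and 1.43 in neuron cells without SOX2, HHIP was 0.80, 1.15 and 0.67 with all 3 neuron genes, without the highest 5% and under 10%, and BOC was -1.12 thinned and -1.0 under 10%, none called. CDON (0.66 without scaling) and SMO (1.23 without scaling, 1.08 with collagen VI at 5 or more UMIs) gained calls. With SOX2 over ungated cells (3603), DESeq2 called 1939, thinning 1708, and shares under 10% and of 10% or more 881 and 638. SHH was 0.68 under 10%, CDON -0.39 with DESeq2, -0.29 thinned and 0.60 at 10% or more, and GLI3 -0.31, -0.28 without the highest 5%, -0.25 under 10% and 0.12 at 10% or more.

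DESeq2 called 517 genes for cycling (2457 with edgeR), 1207 for HHIP (4580), 196 for GLI3 (1508) and 2085 for SHH (5699). The HHIP split had 1068 thinned and 297 and 1318 under 10% and at 10% or more, the GLI3 split 439 and 578, and the SHH split 1418 thinned, 203 and 2362. Without the replicate block, which pairs gates of 1 suspension by design, 1015 genes were called for cycling, 2990 for HHIP and 132 for GLI3, and CDON (0.31, adjusted p = 0.125 over neuron, -0.37 over ungated) and GLI3 (-0.29 over ungated) lost calls. Leaving out 1 replicate leaves no residual spread, so it gives 90 log2 ratios without a test and no counts, and no called member changed sign in them. All 12 co-detection shares fell on thinning. The 40 and 77 collagen VI cells and low UMI counts limit what is detectable there.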

Other observations

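Finer gates showed further differences, given here as CPM of library totals without a test. SHH stood at 7.39 and 13.7 in neuron-gate cells with the nascent neuron genes DLL3 or HES6 (2 or more UMIs), against 20.2 and 34.1 in other neuron-gate cells. CDON stood at 50.3 and 23.4 in DLL3 or HES6 cells, against 104 and 95.9, and GLI3 at 85.8 and 126, against 243 and 187. PTCH1 stood at 12.2 and 16.5 in collagen VI cells with keratins 8 and 18, against 117 and 142 in the 11 and 12 other collagen VI cells, which rest on 4 and 13 UMIs, against 5 and 7. CDON stood at 261 and 192 in ungated cells with GATA3, against 125 and 127 in other ungated cells.

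Across 7 finer gates of 20 or more cells, which share libraries and depth, the genes most like each member in log2(CPM + 10) were as follows, by the mean of Pearson's r in the 2 replicates. SHH was most like LRRC77 (0.961), EPHX1 (0.960) and LPAR6 (0.944), and HHIP was most like FAM126A (0.996), CMTM4 (0.993) and URI1 (0.993). CDON was most like RAPGEF5 (0.967), RICTOR (0.962) and SMAD6 (0.958), and BOC was most like IER3IP1 (0.857), ZDHHC5 (0.856) and AK3 (0.848). SMO was most like SNRNP40 (0.989), CERS5 (0.989) and TBCCD1 (0.987), and GLI3 was most like ENPP1 (0.987), PARD6B (0.981) and LRP2 (0.977). Between members the highest value was that of HHIP with SMO (0.959), and the lowest was that of SHH with GLI3 (-0.19). The latter differed in sign between the replicates (0.015 and -0.39), as did that of HHIP with BOC (-0.313 and 0.606), among others.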
